A study of Mus musculus with 4 samples.

Results

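The Gimap genes encode GTPases of immunity-associated proteins, and they were described here in mouse T cells cultured as Tc9 or as Tc1 cells. The members were the probe sets annotated to Gimap1, Gimap3, Gimap4, Gimap5, Gimap6, Gimap7, Gimap8 and Gimap9 in the platform table. All 8 were measured, out of 19505 genes on the array, and each had a single probe set. The series holds 2 arrays of Tc9 cells and 2 of Tc1 cells, numbered 1 and 2 within each group by the titles, and its stated purpose was to compare gene expression between them. By common use, Tc9 cells are interleukin 9-producing CD8 T cells, and Tc1 cells are cytotoxic CD8 T cells that produce interferon gamma. Each group is known only by its name, Tc9 or Tc1. The sources used here do not give the cytokines, culture times, mouse strain, genotype, age or number of animals. No label ties the replicates to separate cultures or animals, so the p-values measure only the spread between these arrays, which may be technical.

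Gimap proteins share a GTP-binding domain of the AIG1 type and are made mainly in lymphocytes, where several of them sit on membranes of mitochondria, lysosomes or the endoplasmic reticulum. They are best known for the survival of resting T cells: rodents that lack Gimap5 lose peripheral T cells, and loss of Gimap1 in mice depletes mature T and B cells. Some members bind proteins of the BCL2 family, which set the threshold for mitochondrial cell death. In RefSeq the mouse genes lie next to each other on chromosome 6, in the order Gimap8, Gimap9, Gimap4, Gimap6, Gimap7, Gimap1, Gimap5 and Gimap3, with no other measured gene between them.

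The promoters of Gimap4, Gimap6 and Gimap7 are shown because these 3 adjacent genes had the largest fitted log2 changes between Tc9 and Tc1 cells among the members (that of Gimap7 from a signal below background in Tc9), and that of Gimap1, the next gene, because its difference was within its error. Each is the RefSeq sequence from 250 bases before to 50 bases after the gene's start, 5′ to 3′ on the gene's strand, in build GRCm38.p6: chr6:48684328-48684627 on the plus strand for Gimap4, chr6:48708195-48708494 on the minus strand for Gimap6, chr6:48718371-48718670 on the plus strand for Gimap7 and chr6:48738797-48739096 on the plus strand for Gimap1. Capitals mark matches, on either strand, to short motifs of transcription factor families active in T cells: TGTGGT for RUNX, AGGAAG for ETS, GGTGTGA for T-box factors, GTAAACA for FOXO, CCACCC for KLF, TTCNNNGAA for STAT, GAAANNGAA for IRF and CAGACA for SMAD.
Gimap4: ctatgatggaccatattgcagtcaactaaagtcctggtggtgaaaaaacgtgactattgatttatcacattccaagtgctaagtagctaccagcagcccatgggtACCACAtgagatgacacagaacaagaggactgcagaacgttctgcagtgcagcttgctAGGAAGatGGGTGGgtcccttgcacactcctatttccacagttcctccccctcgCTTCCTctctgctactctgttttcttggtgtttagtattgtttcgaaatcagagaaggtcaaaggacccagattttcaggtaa
Gimap6: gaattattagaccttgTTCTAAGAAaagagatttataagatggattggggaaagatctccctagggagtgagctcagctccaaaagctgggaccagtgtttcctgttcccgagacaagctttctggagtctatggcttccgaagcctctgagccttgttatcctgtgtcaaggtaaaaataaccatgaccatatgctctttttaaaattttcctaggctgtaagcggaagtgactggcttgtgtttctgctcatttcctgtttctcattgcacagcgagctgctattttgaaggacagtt
Gimap7: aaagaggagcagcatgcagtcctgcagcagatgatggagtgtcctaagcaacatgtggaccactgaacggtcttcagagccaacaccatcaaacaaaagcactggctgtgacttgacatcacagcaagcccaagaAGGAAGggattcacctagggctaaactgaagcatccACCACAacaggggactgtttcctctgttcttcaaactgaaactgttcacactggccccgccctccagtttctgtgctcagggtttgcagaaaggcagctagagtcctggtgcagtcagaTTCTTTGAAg
Gimap1: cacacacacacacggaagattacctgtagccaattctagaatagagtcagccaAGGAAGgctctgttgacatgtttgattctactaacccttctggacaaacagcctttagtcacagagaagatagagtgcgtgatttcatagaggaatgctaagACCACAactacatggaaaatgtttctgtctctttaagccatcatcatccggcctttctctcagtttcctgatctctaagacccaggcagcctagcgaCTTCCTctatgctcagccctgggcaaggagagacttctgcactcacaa
No matches overlapped in these 4 sequences. A RUNX match was found in the promoters of Gimap4, Gimap7 and Gimap1, which is 3 of the 9 member promoters (Gimap8 has 2 start sites in the table), against 16.8% of all 32851 promoters. An ETS match was found in 7 of the 9, against 35.4% of all. The T-box motif of T-bet and Eomes matched only in the 2 overlapping windows of Gimap8, against 3.98% of all, and the IRF motif in 0 of 9, against 8.56%. The STAT motif matched in 4 of 9 (against 8.3%), among them those of Gimap6 and Gimap7, the KLF motif in 5 (31.5%) and the FOXO motif in 1 (3.65%). The SMAD motif matched in 3 (21%), namely the same site in the 2 overlapping windows of Gimap8 and a site in Gimap3. A match is a run of letters and not a shown binding site.

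Of the 8 Gimap genes, 0 passed the test across all genes, and the 8 fitted log2 changes (Tc9 minus Tc1) were all below 0, as were 50.7% of those of all genes and 52.5% of those of genes above background on at least 1 array. The fitted changes of Gimap4 and Gimap6 were -0.78 and -0.63, and those of Gimap1, Gimap3, Gimap5, Gimap8 and Gimap9 lay between -0.20 and -0.11. That of Gimap7 was -1.12, but both of its Tc9 signals were below background, so its place among the members is uncertain. The test was limma on quantile normalized intensities, as log2(value + 16), with Benjamini-Hochberg adjustment over the 19505 genes and a threshold of 0.05; log2 changes on this scale understate the change of dim genes. It called 110 genes, or 0.564% (0.179% lower in Tc9). At an unadjusted limma p under 0.05, 3 of 8 members were lower (Gimap4, Gimap6 and Gimap7), against 2.34% of all genes and 4.65% of the 7767 genes above background on at least 1 array. Background is here the 95th percentile of the array's 5222 negative control probe sets, taken on the deposited intensities. Both Tc9 arrays lay below both Tc1 arrays for 4 members (the same 3 and Gimap8), against 15.1% of all genes and 19.2% of those above background. The median log2 change was -0.19 over the members (-0.28 and -0.23 in the pairs of arrays numbered 1 and 2) and -0.0027 over all genes. In bulk RNA, fewer cells of a type and less RNA per cell cannot be told apart.

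**Figure D1:**
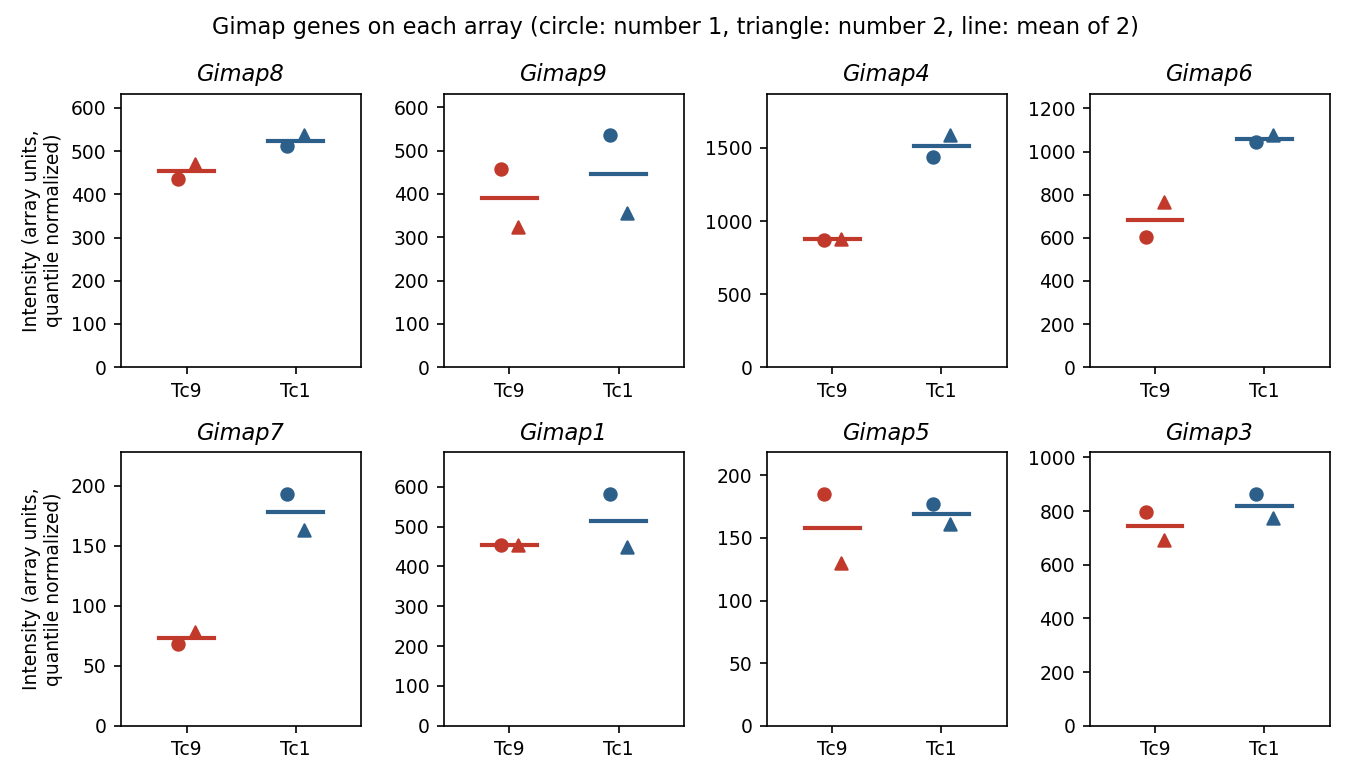
Quantile normalized intensity (array units) of each Gimap gene on the 2 Tc9 and 2 Tc1 arrays, in the order of the genes on chromosome 6; circles are arrays numbered 1, triangles those numbered 2 and lines the group means. Gimap4, Gimap6 and Gimap7 show the widest gaps, with both Tc9 arrays below both Tc1 arrays, while Gimap1, Gimap3, Gimap5 and Gimap9 overlap.

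Gimap4, an early-described member that in mice speeds the death of T cells once it is under way and that can bind BCL2 family proteins, measured 872 and 879 on the Tc9 arrays numbered 1 and 2, against 1441 and 1587 on the Tc1 arrays. The 2 Tc9 values were nearly the same, and the groups were far apart relative to the spread within them. The means were 876 ± 4.84 in Tc9 and 1514 ± 103 in Tc1 (SD, n = 2 each). The log2 change was -0.78 ± 0.13 (SE), with a 95% confidence interval of the limma fit of -1.09 to -0.47 and -0.71 and -0.84 in the pairs. It missed the threshold (limma adjusted p = 0.0704) at rank 159 of all genes by p. On the deposited intensities, before normalization, the values were 620 and 1122 in Tc9 and 1071 and 2035 in Tc1, lower in Tc9 within each pair, with groups that overlap because the arrays numbered 2 are brighter.

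Gimap6, which associates with GABARAPL2 and takes part in autophagy, measured 606 and 764 in Tc9, against 1043 and 1076 in Tc1. Both Tc9 arrays were below both Tc1 arrays, and the wider spread was that of the Tc9 group. The means were 685 ± 112 in Tc9 and 1059 ± 23.5 in Tc1 (SD, n = 2 each), a log2 change of -0.63 ± 0.16 (SE; 95% confidence interval -1.005 to -0.25; -0.77 and -0.48 in the pairs). It missed the threshold (limma adjusted p = 0.299).

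Gimap7, whose human counterpart hydrolyses GTP when it pairs with itself or with other GIMAP proteins, measured 68.1 and 78.0 in Tc9, against 193 and 163 in Tc1. The groups did not overlap, and the gap was wide beside the spread in either group. The log2 change was -1.12 ± 0.24 (SE; 95% confidence interval -1.68 to -0.57; -1.32 and -0.93 in the pairs), with limma adjusted p = 0.168. Gimap7 was dim: it lay above background on 0 of 2 Tc9 arrays and on 1 of 2 Tc1 arrays. The size of the difference is therefore uncertain. With the Tc9 level set to the lowest normalized signal above background on each array, the Tc1 level was 1.10-fold higher. That Tc1 level includes 1 array below background, so 1.10-fold is not a firm minimum. Sharing of signal between the probe sets of these related genes was not examined.

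Gimap5, Gimap3 and Gimap1 had smaller fitted changes than Gimap4, Gimap6 and Gimap7, but differences between members were not tested. Gimap5, the lysosomal member lost in lymphopenic rats and mice, measured 185 and 130 in Tc9 and 177 and 161 in Tc1. The 2 Tc1 values lay between the 2 Tc9 values. It was above background on 1 of 2 Tc9 arrays and 0 of 2 Tc1 arrays, so no fold is given for it; the fitted log2 change was -0.11 ± 0.24 (SE; 95% confidence interval -0.68 to 0.46). Gimap3, a mitochondrial outer membrane relative of Gimap5 that has no functional human counterpart, measured 797 and 692 in Tc9 and 864 and 775 in Tc1. It was lower in Tc9 within each pair (-0.11 and -0.16), but the groups overlapped (95% confidence interval of the log2 change -0.50 to 0.22). Gimap1, needed for the survival of mature lymphocytes in mice, measured 455 and 453 in Tc9 and 583 and 448 in Tc1. The Tc1 array numbered 1 alone stood higher, so that the pairs gave -0.35 and 0.016 (95% confidence interval -0.59 to 0.26).

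Gimap8, the largest family protein with several GTPase domains, measured 437 and 470 in Tc9, against 511 and 537 in Tc1. The groups did not overlap, with pair differences of -0.22 and -0.19, but the log2 change of -0.20 ± 0.16 (SE) did not pass (limma adjusted p = 1.00; 95% confidence interval -0.57 to 0.16). Gimap9 measured 458 and 324 in Tc9 and 536 and 355 in Tc1. Here the arrays differed more by number than by cell type: both arrays numbered 1 exceeded both numbered 2, and the pair differences were -0.22 and -0.13 (95% confidence interval -0.77 to 0.43). For Gimap1, Gimap3, Gimap5, Gimap8 and Gimap9 the intervals include 0, and those of Gimap5 and Gimap9 also include the -0.63 fitted for Gimap6, so the arrays do not show that their levels were alike in Tc9 and Tc1 cells.

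The arrays numbered 1 and those numbered 2 differed in the deposited values, with a median of 10 written digits on those numbered 1 and 7 on those numbered 2, and each number holds 1 Tc9 and 1 Tc1 array. With the number as a replicate block, Gimap4 (limma adjusted p = 4.91e-26), Gimap6 (8.24e-14) and Gimap7 (4.70e-11) passed as lower in Tc9 and the other 5 did not, against 7.37% of all genes called lower (6.34% higher) and 15.5% of those above background. That fit has 1 residual degree of freedom and an infinite prior, so genes of like intensity were given the same spread. Without the intensity trend the blocked fit had 9.01 prior degrees of freedom and called the same 3 members lower, with limma adjusted p = 0.00105 for Gimap4, 0.00616 for Gimap6 and 0.000228 for Gimap7, against 3.41% of all genes. Between the numbers, culture and array processing cannot be told apart. Within both pairs 6 of 8 members were lower in Tc9, against 32% of all genes and 39.3% of those above background; the exceptions were Gimap1 in the pair numbered 2 and Gimap5 in that numbered 1 (0.061).

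**Figure D2:**
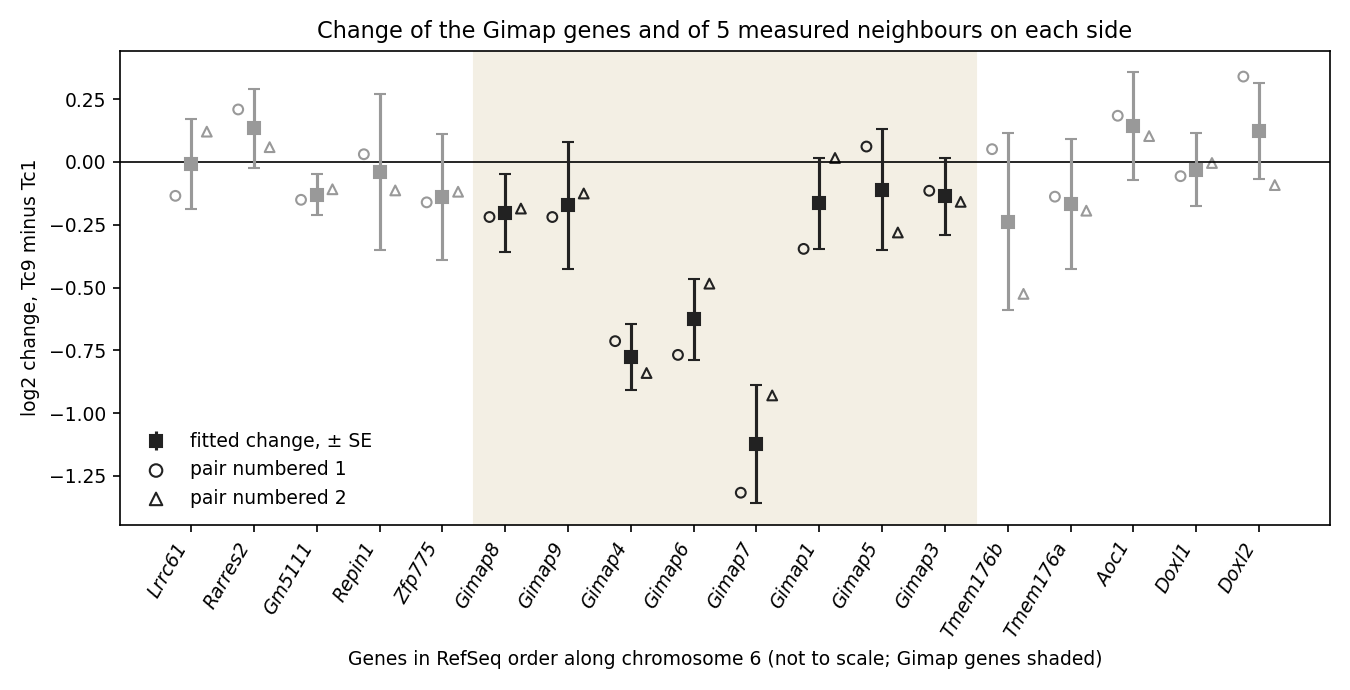
Fitted log2 change (Tc9 minus Tc1) of the 8 Gimap genes and of the 5 measured genes on each side, in RefSeq order along chromosome 6; squares are limma estimates with SE, open circles the pair numbered 1 and open triangles the pair numbered 2. Gimap4, Gimap6 and Gimap7 lie between -0.63 and -1.12 (Gimap7 from Tc9 signals below background), while the 10 neighbours lie between -0.24 and 0.14. Gimap1, Gimap3, Gimap5, Gimap8 and Gimap9 lie between -0.20 and -0.11, within the range of the neighbours. Of the neighbours, only Lrrc61 and Repin1 were above background on any array.

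Of the 5 measured genes before Gimap8 (Lrrc61, Rarres2, Gm5111, Repin1 and Zfp775) and the 5 after Gimap3 (Tmem176b, Tmem176a, Aoc1, Doxl1 and Doxl2), 0 passed limma and 0 passed with the block, and their log2 changes ran from -0.24 for Tmem176b to 0.14 for Aoc1. Only Lrrc61 lay above background on all 4 arrays, and Repin1 did on 2. The other neighbours were below background on all 4 arrays, where this scale understates a change. Their small changes therefore do not show that their levels were alike in Tc9 and Tc1 cells. Lrrc61, a leucine-rich repeat gene, measured 292 and 306 in Tc9 and 322 and 280 in Tc1. Repin1, a zinc finger gene, measured 225 and 132 in Tc9 and 220 and 144 in Tc1. Both arrays numbered 1 exceeded both numbered 2, and the groups overlapped. Rarres2, which encodes the chemoattractant chemerin, measured 18.9 and 22.5 in Tc9 and 14.2 and 21.0 in Tc1. Zfp775 had a log2 change of -0.14, and Tmem176a, a membrane protein gene, one of -0.17. Gm5111 (-0.13), Doxl1 (-0.030) and Doxl2 (0.12) stayed within 0.14 of 0.

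Genes whose 4 values most resembled the mean Gimap profile were ranked by the root mean square distance of gene-centred log2 values over the 4 arrays. The mean profile of the 8 members was -0.17 and -0.24 on the Tc9 arrays and 0.28 and 0.13 on the Tc1 arrays, relative to each gene's own mean. The 5 closest other genes were Cyb5b, a cytochrome of the mitochondrial outer membrane, at a distance of 0.013, Pdlim1, a cytoskeletal adaptor, at 0.014, 2610002M06Rik and Psat1, an enzyme of serine synthesis, at 0.017 each, and Mfn2, which fuses mitochondria, at 0.019. Each had a log2 change between -0.42 and -0.38 and missed the threshold in the fit without a block. With the replicate block each was called lower in Tc9, with or without the intensity trend (7.37% and 3.41% of all genes). These 5 genes were picked by their profile on the same arrays. The members themselves lay farther from their mean profile, from 0.14 for Gimap8 to 0.36 for Gimap7, so the mean describes none of them closely.

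The 5 measured genes of CD8 T cell identity lay above background on all 4 arrays, and 0 of them passed limma. Cd8a, a chain of the CD8 coreceptor, measured 5272 and 4178 in Tc9 and 5305 and 4603 in Tc1, Cd8b1 2447 and 3007 in Tc9 and 2870 and 3724 in Tc1, and Cd3e 5998 and 6915 in Tc9 and 5405 and 6179 in Tc1, with overlapping groups. Both Tc9 arrays lay above both Tc1 arrays for the other 2, the CD3 chain genes Cd3d and Cd3g, as for 2724 of all 19505 genes. Cd3d measured 1560 and 1548 in Tc9, against 1030 and 1098 in Tc1 (limma adjusted p = 0.229, with the block 1.11e-13). Cd3g measured 2972 and 3311 in Tc9, against 2642 and 2591 in Tc1 (limma adjusted p = 0.995, with the block 1.30e-05). These 2 genes were named after their values were seen. With the block Cd8b1 was also called, as lower in Tc9 (limma adjusted p = 4.68e-06), and Cd3e as higher (0.00175). Of the 5 genes 1 was thus called lower and 3 higher with the block, against 7.37% and 6.34% of all genes. With the block and no intensity trend 0 were lower and 1 was higher, against 666 and 760 of all 19505 genes. That 1 gene was Cd3d (limma adjusted p = 0.00922), so the other calls depend on the variance model. Cd4 was below background on all 4 arrays, at 38.4 and 41.0 in Tc9 and 43.2 and 52.9 in Tc1. Of 26 measured markers of CD4 T, B, NK, myeloid, endothelial, erythroid and platelet cells, 23 were below background on all 4 arrays, and the exceptions were Cd79b, Eomes (which CD8 T cells also express) and Pecam1. NK cells, B cells and endothelial cells also express Gimap genes. The summed level of 4 NK cell markers was 299 and 297 in Tc9 and 1101 and 1092 in Tc1. It was carried by Eomes, which fell to 249 and 258 in Tc9, against 1051 and 1050 in Tc1 (log2 change -1.98 ± 0.15 SE, limma adjusted p = 0.00381), while Ncr1, Klrb1c and Klre1 were below background on all 4 arrays. The summed level of 5 B cell markers was 191 and 283 in Tc9 and 159 and 274 in Tc1, and that of 5 endothelial markers 203 and 209 in Tc9 and 217 and 270 in Tc1. The part of such cells in the Gimap differences was not tested.

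BCL2 family genes, whose products some Gimap proteins bind, did not pass the test. Of 17 measured members 0 passed limma, with 1 lower and 2 higher at an unadjusted p under 0.05 (2.34% of all genes lower and 2.94% higher), and the median log2 change was -0.14. The smallest p was that of Bcl2l11, which encodes the death activator BIM, at 723 and 801 in Tc9 against 517 and 517 in Tc1, a log2 change of 0.54 ± 0.15 (SE; limma adjusted p = 0.356). With the replicate block 5 were lower and 3 higher (7.37% and 6.34% of all genes). Without the intensity trend as well 2 were lower and 1 higher, against 666 and 760 of all 19505 genes. Of 11 measured genes for direct partners and autophagy proteins, 0 passed limma, with 1 higher at an unadjusted p under 0.05 (2.94% of all genes). With the block 4 were higher (6.34% of all genes), and with the block and no intensity trend 2 were (760 of all 19505 genes). That with the smallest p was Map1lc3a, an LC3 autophagy protein gene, at 42.6 and 69.9 in Tc9 and 25.2 and 31.1 in Tc1, below background on all 4 arrays (limma adjusted p = 0.771). Gabarapl2, the gene for the Gimap6 partner, measured 251 and 298 in Tc9 and 284 and 230 in Tc1, with overlapping groups. Gsk3b, a kinase restrained by Gimap5 in mouse T cells, measured 874 and 1458 in Tc9 and 772 and 1385 in Tc1, and its values followed the array number. These 2 genes are named for their links to members and were picked after their values were seen.

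Gimap proteins are best known from resting T cells. Of 20 measured genes listed for resting and naive T cells, 2 rose and 1 fell in Tc9 (0.385% of all genes rose and 0.179% fell), and the median log2 change was 0.28. Tsc22d3, the glucocorticoid-induced leucine zipper gene, rose to 307 and 331 in Tc9, against 115 and 117 in Tc1 (log2 change 1.35 ± 0.20 SE, limma adjusted p = 0.0426). S1pr1, which guides exit from lymph nodes, rose to 252 and 327 in Tc9, against 60.2 and 85.2 in Tc1 (1.79 ± 0.25 SE, limma adjusted p = 0.0395). Both were below background on the 2 Tc1 arrays, so the size of these folds is uncertain. The member of the list that fell was Ly6c1, a surface protein of effector and memory CD8 cells. It fell to 328 and 306 in Tc9, against 1441 and 1365 in Tc1 (-2.09 ± 0.14 SE, limma adjusted p = 0.00244). The calls of S1pr1 and Tsc22d3 depend on the scaling, and that of Ly6c1 on normalization between the arrays. With the deposited values 0 of the 20 passed. With median centring or a pseudocount of 64 the 2 higher calls were lost, and 1 gene passed as lower in Tc9. With the replicate block 10 of the 20 were higher and 1 was lower (6.34% and 7.37% of all genes). Without the intensity trend as well, 6 were higher and 1 was lower, against 760 and 666 of all 19505 genes.

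**Figure D3:**
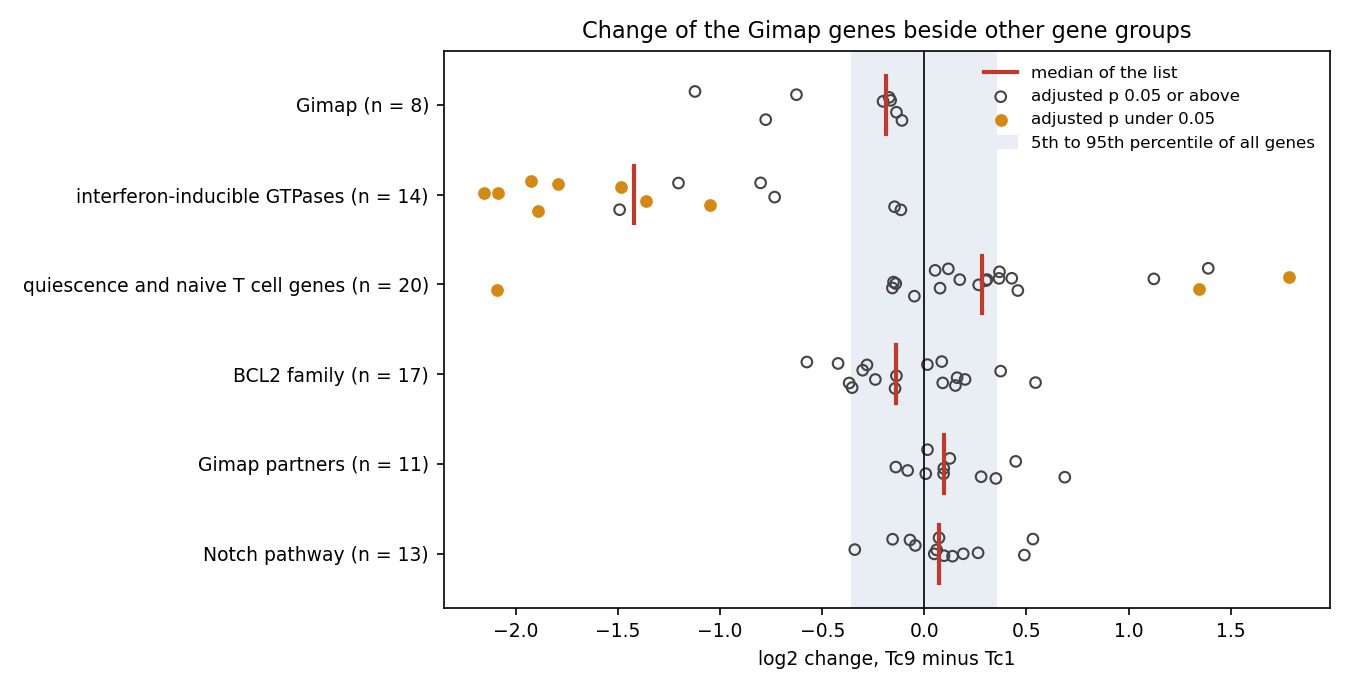
Fitted log2 change (Tc9 minus Tc1) of each measured gene in 6 groups; filled points passed limma at an adjusted p under 0.05, red lines are group medians and the shaded band runs from the 5th to the 95th percentile of all genes (-0.35 to 0.35). Of the Gimap genes, 3 lie left of the band (Gimap7 among them, below background in Tc9) and 5 within it, while 8 of 14 interferon-inducible GTPases passed as lower in Tc9.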

How the data were processed

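RNA from 2 Tc9 and 2 Tc1 samples was labelled with biotin by the Affymetrix protocol, per the labels. The authors deposited 1 intensity per probe set and array on a linear scale, as read from the values (28846 probe sets, up to 13711); how they were background corrected and summarized is not stated there. Leaving out 6640 controls, 22206 probe sets were quantile normalized, and 19572 had a single gene symbol. The probe set with the highest mean stood for a gene (19505 genes; 55 had several). After adding 16 and taking log2, Tc9 minus Tc1 was fitted in R 4.3.3 by limma 3.58.1 (2-sided, with lmFit and a trended eBayes), with 2 residual and 5.09 prior degrees of freedom. The number of arrays limits the precision. The script was tested on simulated data. Alternatives were no normalization, median centring, other pseudocounts (1 and 64), filters on dim genes (25th and 50th percentile), variance models, a replicate block and leaving out each array.

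The members and gene lists were chosen with earlier results of these data known. Named are all members, genes of each list past the threshold (or the smallest p), 5 measured neighbours on each side, the 5 most alike profiles and Cd8a, Cd8b1, Cd3e and Cd4. The interferon-inducible GTPases are named in the closing section. Promoters are RefSeq sequences, matched by symbol for 8 of 8 members.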

Additional observations from a re-analysis of the deposited data

How the results depend on the processing

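The count of Gimap genes past the threshold, 0 by limma (3 at an unadjusted p under 0.05), was also 0 with the deposited values, median centring, a pseudocount of 1 or 64, either filter, no intensity trend and the robust variance model. It was 3 with the replicate block, with the intensity trend or, in a setting added after the data were seen, without it, and between 0 and 2 when an array was left out. Gimap4 passed without the Tc9 array numbered 1 (limma adjusted p = 0.0389) or 2 (0.0309), and Gimap6 without the Tc9 array numbered 2 (0.0441). These fits leave 1 Tc9 array, which is assumed to vary like the Tc1 arrays, and have 1 residual degree of freedom. The median log2 change of the members ran from -0.40 (without the Tc1 array numbered 2) to -0.15 (without the Tc1 array numbered 1) over the fits that left out an array. The changes of Gimap4, Gimap6, Gimap7, Gimap3 and Gimap8 stayed below 0 in all 14 alternatives. Those of the others turned above 0 without 1 array: Gimap5 ran from -0.34 to 0.12 (above 0 without the Tc9 array numbered 2), Gimap1 from -0.35 to 0.019 (without the Tc1 array numbered 1) and Gimap9 from -0.46 to 0.11 (0.067 without the Tc9 array numbered 2 and 0.11 without the Tc1 array numbered 1). None of these reversed values passed the test (limma adjusted p = 1 each).

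Over all genes, 110 calls became 16 with the deposited values (13 higher and 3 lower, against 75 and 35), 56 without the intensity trend, 2674 with the replicate block, 1426 with the block and no intensity trend, and 186 to 274 without an array. Of the resting and naive T cell genes, 3 calls became 5 with a pseudocount of 1 and without any 1 array, 11 with the block and 7 with the block and no intensity trend. The cause was not tested. Same-numbered arrays deviated together from their group means (r = 0.729 across genes, which are not independent replicates), but with 2 pairs and no label to say so the numbers are not shown to pair cultures. Other probe sets could not be tried, because each member has only 1. Signal over background limits Gimap7 and Gimap5.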

Other observations

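Of 14 measured genes of another GTPase group, those induced by interferon, 8 fell in Tc9 cells by the same fit (0.179% of all genes fell) and 6 did not pass, with a median log2 change of -1.42, beside -0.19 for the 8 Gimap genes. Gbp4, a guanylate-binding protein, fell to 596 and 624 in Tc9, against 2325 and 2000 in Tc1 (log2 change -1.80 ± 0.14 SE, limma adjusted p = 0.00396). Irgm1, which regulates related GTPases on vacuoles and autophagy, fell to 688 and 753 in Tc9, against 2201 and 1899 in Tc1 (-1.49 ± 0.14 SE, limma adjusted p = 0.00705). Irgm2 fell by 1.05 and Tgtp2 by 1.36, and Gbp2, Gbp3, Gbp7 and Iigp1 were the other 4 past the threshold. With the deposited values 0 of the 14 passed, and without the intensity trend 5 did. Median centring gave 7 lower, and a pseudocount of 1 or 64, either filter and the robust variance model gave 8 each. With the replicate block 12 were lower (7.37% of all genes), and also 12 with the block and no intensity trend (3.41% of all genes). Whether the 2 families differ in their change was not tested.

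Of 13 Notch pathway genes, 0 passed limma, with 1 higher at an unadjusted p under 0.05 (2.94% of all genes), and the median log2 change was 0.072. With the replicate block 1 was lower and 3 were higher (7.37% and 6.34% of all genes). Without the intensity trend as well 2 were higher, against 760 of all 19505 genes. The smallest p was that of Rbpj, the DNA-binding factor of the pathway, at 2892 and 2642 in Tc9 and 2003 and 1817 in Tc1 (log2 change 0.53 ± 0.12 SE, limma adjusted p = 0.225, with the block 2.02e-19 and with the block and no intensity trend 0.00943).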
